A study of Mus musculus with 10 samples.

Results

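The integrin genes *Itgam*, *Itgax*, *Itgb2*, *Itgal*, *Itga4*, *Itgb1*, *Itgav*, *Itgb5*, *Itga6* and *Itga9* were followed through 10 RNA-seq libraries of sorted hippocampal microglia. They are 10 of the 55453 genes in the deposited count table and were picked by symbol as the integrin subunits of microglia, with no measured value in the rule. All 10 were found, and all 10 passed the filter on low counts. The other 16 integrin subunits in the table are given for comparison only.

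Both groups were aged female 3xTg AD mice, which carry human *APP* with the Swedish mutation and mutated human *MAPT*. By the study's methods the Thy1.2 promoter, a promoter of neurons, drives these genes. The mice were retired breeders over 15 months old. For about 8 weeks they were injected under the skin with PBS (5 libraries, titles 388_1 to 388_5) or with glatiramer acetate (GA) in the same vehicle, at 0.1 mg an injection, once a week with an additional injection in the first week (5 libraries, titles 394_1, 394_2, 400_1, 400_2 and 400_3). GA is an immunomodulatory drug for multiple sclerosis, made of random chains of a few amino acids. No wild-type library is part of this comparison, which asks whether GA changed RNA levels in microglia of these mice. The meaning of the title prefix is not given, and since the PBS libraries all have one prefix and the GA libraries the others, prefix and treatment cannot be told apart. Nothing in the labels says that each library came from a separate animal, so p-values measure the spread between these libraries.

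An integrin is a pair of an α and a β subunit that spans the membrane and ties the cytoskeleton to matrix proteins, complement fragments or receptors on other cells. Subunits pair selectively: the leukocyte subunits encoded by *Itgam*, *Itgax* and *Itgal* pair with the product of *Itgb2*, those encoded by *Itga4*, *Itga6* and *Itga9* with that of *Itgb1* (α4 also with that of *Itgb7*, and α6 with that of *Itgb4*), and the αv subunit encoded by *Itgav* with several β subunits including those of *Itgb1*, *Itgb3*, *Itgb5* and *Itgb8*. On microglia, αMβ2 (CD11b/CD18) is the complement receptor that takes part in the engulfment of complement-tagged synapses and debris, and CD11c, from *Itgax*, marks a subset of microglia around amyloid plaques. The cells had been sorted as CD45int CD11b+, that is, on the protein of *Itgam* itself, so the gate bears on every value of that gene.

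Total counts ran from 32332185 to 37708856 in the PBS group and from 33300102 to 38764643 in the GA group, and levels are given as CPM, counts scaled to the same library total by TMM normalization. The 8 microglial markers used, among them *P2ry12*, *Tmem119* and *Sall1*, summed to 43000 to 49600 CPM in PBS libraries and 42700 to 45600 CPM in GA libraries, so the label was met. Markers of other cells that carry these integrins were far lower. The 10 neutrophil markers summed to 36.2 to 426 CPM in PBS and 9.88 to 162 CPM in GA, the 6 monocyte markers to 31.0 to 59.7 and 35.5 to 38.7, the 7 markers of border macrophages to 49.5 to 255 and 49.1 to 195, and the 10 lymphocyte markers to 0.448 to 1.99 and 0.693 to 2.29, with *Cd3e*, *Cd3g* and *Ncr1* at no more than 3 counts in any library. In bulk RNA, fewer cells of a type and less RNA per cell cannot be told apart.

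No integrin gene among the 10 was called changed by GA. In a quasi-likelihood F-test fitted with edgeR on 14481 genes and adjusted by Benjamini-Hochberg, 0 of 10 had an adjusted p under 0.05, where 0 of all genes tested did (0%). At an unadjusted p under 0.05 the count was also 0 of 10, against 833 genes (5.75%) in the whole table. DESeq2 at its default settings called 2 genes of the whole table, and 3 once its filtering and outlier steps were off, none of them an integrin member. Higher fitted values in GA were found for 8 members and lower ones for *Itgb1* and *Itga9*, with a median log2 fold change of 0.0546 over the members and 0.0002 over all genes tested. None of the 10 had its groups apart, where every GA library lay above every PBS library for 0.435% of genes and below for 0.456%.

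**Figure D1:**
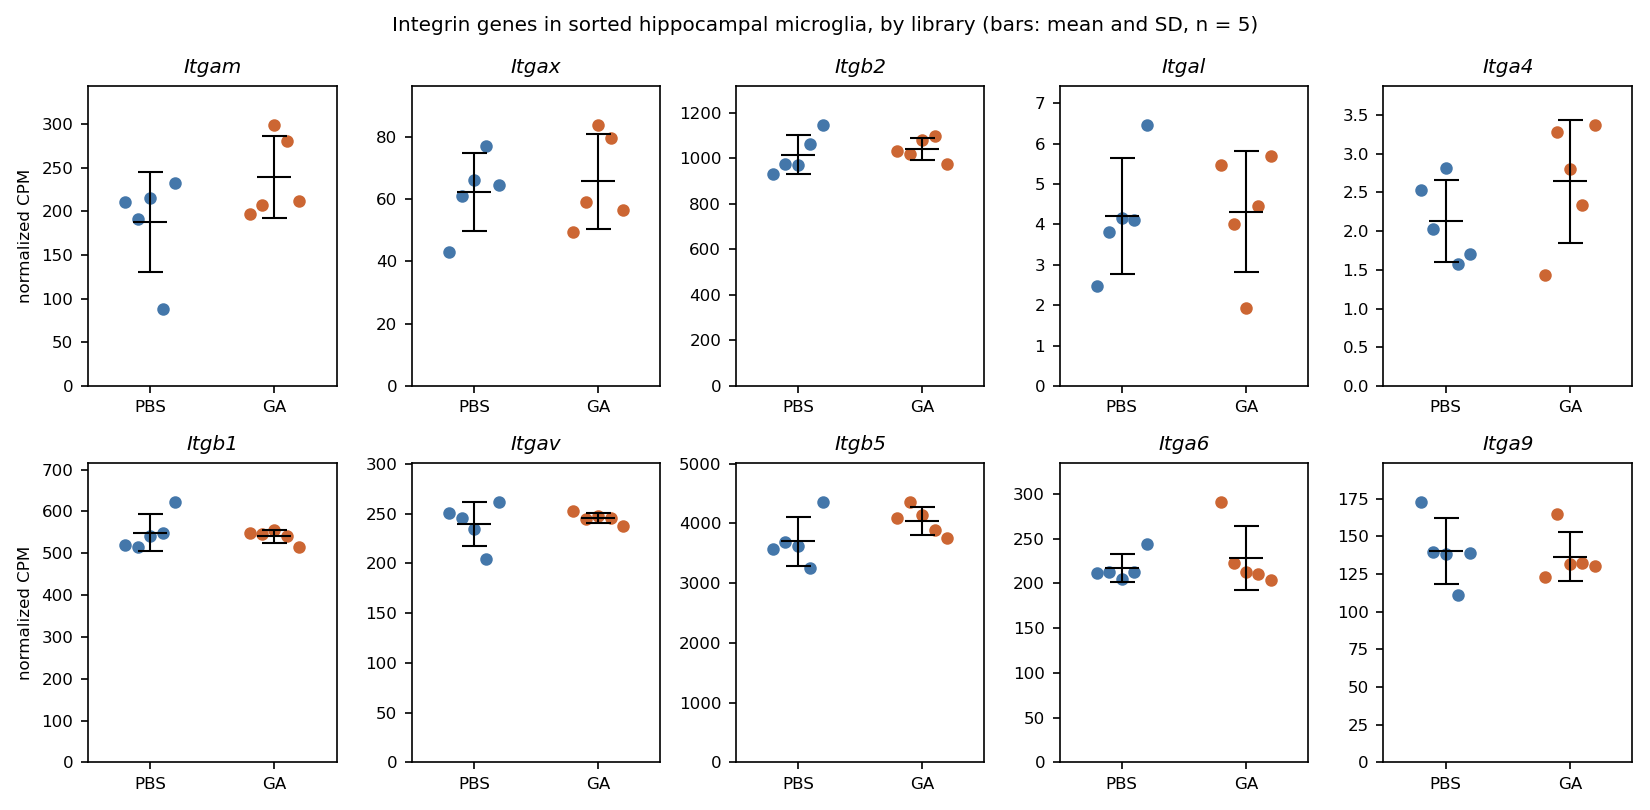
Normalized CPM (vertical axes, each from 0) of the 10 integrin genes in PBS (blue) and GA (orange) libraries, 1 point a library, with the mean and SD of 5 libraries per group. The groups overlap in every panel, and the low *Itgam* point in PBS is library 388_4 at 88.7 CPM.

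*Itgam* (ENSMUSG00000030786.18) lies on the forward strand of chromosome 7 at 128062640 to 128118491 (GRCm38), next to *Itgax* at 128129547 to 128150657 and ahead of *Itgad*, another partner of *Itgb2*, at 128154376. *Itgal* is on the same chromosome at 127296260 to 127335138. The promoters of the neighbours *Itgam* and *Itgax* are shown because these are the members that varied most among the well-expressed genes below. Both are RefSeq windows of GRCm38.p6 from 250 bases before to 50 after the gene's start on the forward strand, *Itgam* at chr7:128062390-128062689 and *Itgax* at chr7:128129300-128129599. Capitals mark GAGGAA on either strand (TTCCTC on the reverse), the core of the sites of PU.1, a transcription factor of myeloid cells.
Itgam: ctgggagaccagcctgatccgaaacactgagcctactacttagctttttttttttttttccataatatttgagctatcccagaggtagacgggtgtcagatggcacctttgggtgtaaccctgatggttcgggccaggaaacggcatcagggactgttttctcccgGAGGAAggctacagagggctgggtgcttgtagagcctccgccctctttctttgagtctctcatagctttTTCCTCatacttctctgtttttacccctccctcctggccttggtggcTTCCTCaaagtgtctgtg
Itgax: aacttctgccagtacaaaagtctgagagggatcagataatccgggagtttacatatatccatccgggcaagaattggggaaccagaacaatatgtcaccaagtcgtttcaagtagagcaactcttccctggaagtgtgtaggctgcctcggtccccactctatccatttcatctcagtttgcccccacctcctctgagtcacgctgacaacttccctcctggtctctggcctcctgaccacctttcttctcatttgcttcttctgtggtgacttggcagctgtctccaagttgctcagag
The *Itgam* window held these letters 3 times, at positions -84 to -79 and -15 to -10 from the start and at 32 to 37 after it, and the *Itgax* window held none. RefSeq windows were at hand for 7 of the 10 members and held the letters in 3 (*Itgam*, *Itgav* and *Itgb1*), compared with 28.3% of 32851 promoters. A match of letters is not a measured binding site.

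Counts on *Itgam* carry a limit from the annotation. Its merged exons span 5024 bases, of which 3450 are shared on the same strand with *Gm49368*, a protein-coding model at 128062683 to 128128160 that runs on past *Itgam* and has 1353 exon bases of its own. *Gm49368* was counted 0 to 4 times per library, so few reads, if any, were counted for both genes. Whether reads in shared exons were dropped or counted for *Itgam* alone is not given in the sources used here. If such reads were dropped, the *Itgam* counts rest on the 1574 unshared bases (31.3%), of which 1430 lie in the last 2 unshared stretches of the gene, at 128116847 to 128117090 and 128117306 to 128118491, and 209 are coding. *Itga4* shares 1124 of its 13978 exon bases with *Cerkl* and *Itgav* 634 of its 10744 with *Gm13684*, both on the opposite strand, and whether counting used the strand is not given. The other 7 members share no exon base with another gene.

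*Itgam* read 211, 191, 216, 88.7 and 233 CPM in PBS libraries 388_1 to 388_5. In the GA group it read 197 and 207 CPM in 394_1 and 394_2 and 299, 280.3 and 212 CPM in 400_1, 400_2 and 400_3. Libraries 400_1 and 400_2 lay above all PBS libraries, 388_4 lay far below all others, and the remaining 7 were intermixed. The means were 188 ± 57.4 CPM in PBS and 239 ± 46.9 CPM in GA (SD, n = 5 each), from 2862 to 10695 counts a library. The log2 fold change for GA was 0.35 ± 0.21 (SE; 95% interval -0.094 to 0.79), a fold of 1.27 (0.937 to 1.73), with an edgeR p of 0.113 and an adjusted p of 0.895. With every arrangement of the 10 libraries enumerated, the exact permutation test (two-sided) gave p = 0.206. Without 388_4 the log2 fold change was 0.17, and the PBS mean was 213 ± 17.0 CPM.

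The spread of *Itgam* was wide for its level. Its coefficient of variation over the 10 libraries was 26.4%, higher than in 99.4% of the 1539 genes with a mean within 2-fold of its own, whose median was 8.11%. Without 388_4 it was 16.5%, above 96.5% of 1413 such genes. By title prefix, the GA libraries averaged 202 CPM (394) and 264 CPM (400), and the log2 fold change was 0.11 with the 394 pair alone (edgeR p of 0.698) and 0.49 with the 400 libraries alone (edgeR p of 0.0624). In library 388_4 the border macrophage markers were the highest of all libraries, at 255 CPM, as were those of monocytes (59.7 CPM), dendritic cells (41.6 CPM), endothelium (50.2 CPM) and astrocytes (8.37 CPM), while the 8 microglial markers summed to 44700 CPM, the median of the PBS group. Its 19221 genes with a read and its mitochondrial share of 0.18% were at the end of the range but close to other libraries, such as 19473 genes and 0.175% in 388_5, the PBS library highest for *Itgam*. The part of any of these in the *Itgam* value was not tested.

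The β2 partner did not share this drop. *Itgb2*, on chromosome 10 at 77530252 to 77565708, encodes CD18, without which no leukocyte αβ2 integrin reaches the surface. It read 929, 977, 969, 1061 and 1146 CPM in PBS and 1032, 1020.0, 1082, 1099 and 977 CPM in GA. Library 388_4 was the second highest of the PBS group. The means were 1016 ± 86.8 and 1042 ± 49.0 CPM, with a log2 fold change of 0.036 ± 0.066 (SE) and an edgeR adjusted p of 0.97. Set against its partner within a library, *Itgam* stood at 19.6% to 22.7% of *Itgb2* in the PBS libraries other than 388_4, at 8.36% in 388_4, and at 19.1% to 27.6% in GA. These are shares of normalized counts, not of protein.

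*Itgax* encodes CD11c, the αX subunit, which with CD18 forms another receptor for complement and fibrinogen. Its values were 42.8, 61.0, 66.1, 77.0 and 64.4 CPM in PBS and 49.4, 58.9, 83.7, 79.7 and 56.6 CPM in GA. The lowest library was 388_1 and the highest were 400_1 and 400_2, the same pair that led for *Itgam*. Library 388_4, lowest for *Itgam*, was the highest PBS library for *Itgax*. Group means were 62.3 ± 12.4 and 65.7 ± 15.1 CPM, and the log2 fold change was 0.077 ± 0.16 (SE; 95% interval -0.27 to 0.42) with an edgeR adjusted p of 0.972. The coefficient of variation, 20.6%, exceeded that of 97.0% of 4067 genes of like level. The 394 pair averaged 54.2 CPM and the 400 libraries 73.3 CPM, and with the 394 pair alone the fold change turned to -0.19.

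The ratio of *Itgax* to *Itgam* was near constant in GA libraries, at 25.1%, 28.5%, 28.0%, 28.4% and 26.7%. In PBS it was 20.3%, 31.9%, 30.6%, 86.8% and 27.7% for 388_1 to 388_5. All 5 GA values lay inside the PBS range, and with 388_4 set aside the PBS values ran from 20.3% to 31.9%. The ratio was looked at after the values were seen, and no test was made of its spread.

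*Itgal* and *Itga4* were the least abundant members. *Itgal* encodes CD11a, the α subunit of LFA-1, an integrin of lymphocytes and other circulating leukocytes that binds ICAM-1. It took 67 to 228 counts a library and read 2.49, 3.83, 4.15, 4.12 and 6.46 CPM in PBS and 5.48, 4.01, 1.94, 4.46 and 5.69 CPM in GA. The highest library was a PBS one, 388_5, and the lowest a GA one, 400_1. *Itga4* encodes α4 of VLA-4, the receptor of leukocytes for VCAM-1 and the target of natalizumab. It took 48 to 131 counts and read 2.54, 2.03, 2.81, 1.58 and 1.70 CPM in PBS and 1.44, 3.28, 2.80, 2.33 and 3.37 CPM in GA. The lowest library, 394_1, and the highest, 400_3, were both in the GA group. The *Itga4* means were 2.13 ± 0.53 and 2.65 ± 0.79 CPM, a log2 fold change of 0.31 ± 0.28 (SE; 95% interval -0.29 to 0.91) with an edgeR adjusted p of 0.932. For *Itgal* the log2 fold change was 0.037 ± 0.30 (SE; 95% interval -0.60 to 0.67) with an edgeR adjusted p of 0.993. The intervals are wide, and the coefficients of variation over the 10 libraries were 32.5% for *Itgal* and 28.9% for *Itga4*. *Itgal* and *Itga4* are also genes of circulating leukocytes, most of which a CD45int CD11b+ gate leaves out. Their marker sums are given above, and the part of such cells in these low values was not tested.

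*Itgb5* was the most abundant integrin of the table. Its product pairs with αv into αvβ5, a receptor for vitronectin and for MFG-E8, a bridge to phosphatidylserine on dying cells. The values were 3576, 3690.0, 3615, 3261 and 4366 CPM in PBS and 4098, 4354, 4142, 3892 and 3749 CPM in GA. All 5 GA libraries lay above the PBS median, and 4 of the 5 PBS libraries lay below every GA library, but the highest value of all was PBS library 388_5. The means were 3702 ± 406 and 4047 ± 234 CPM, a log2 fold change of 0.13 ± 0.073 (SE; 95% interval -0.027 to 0.28) or a fold of 1.09 (0.981 to 1.22), with an edgeR p of 0.0989 and an adjusted p of 0.894. The two-sided exact permutation test gave p = 0.127. Without 388_5 the log2 fold change was 0.20 with an edgeR p of 0.00273 and an adjusted p of 0.561. On TMM-normalized CPM, 388_5 was the only PBS library not below every GA library, so its removal parts the groups by construction. Without 388_4, the lowest library, the log2 fold change was 0.087 with an edgeR p of 0.235. No setting brought *Itgb5* under the adjusted threshold.

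By TMM-normalized CPM, library 388_5 was also the highest of the 10 for *Itgb2*, *Itgal*, *Itgb1* and *Itgav*, and the highest PBS library for *Itga6* and *Itgam*. In it the 8 microglial markers were the highest of all libraries as well, at 49600 CPM. Its TMM factor was the lowest, at 0.954 where the others ran from 0.986 to 1.02, and a low factor raises every CPM of a library alike. By total counts it did not lead for *Itgb2*, *Itgav* or *Itgb5*. Set against *Itgb1* in the same library, *Itgb5* stood at 594% to 717% in PBS (mean 674% ± 48.0) and at 720.0% to 799% in GA (mean 748% ± 30.9). On this ratio the groups did not overlap. It was chosen after the values were seen and has no test. Among the 14480 genes set against *Itgb1*, *Itgb5* included, 67 (0.463%) had every GA library above every PBS library.

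**Figure D2:**
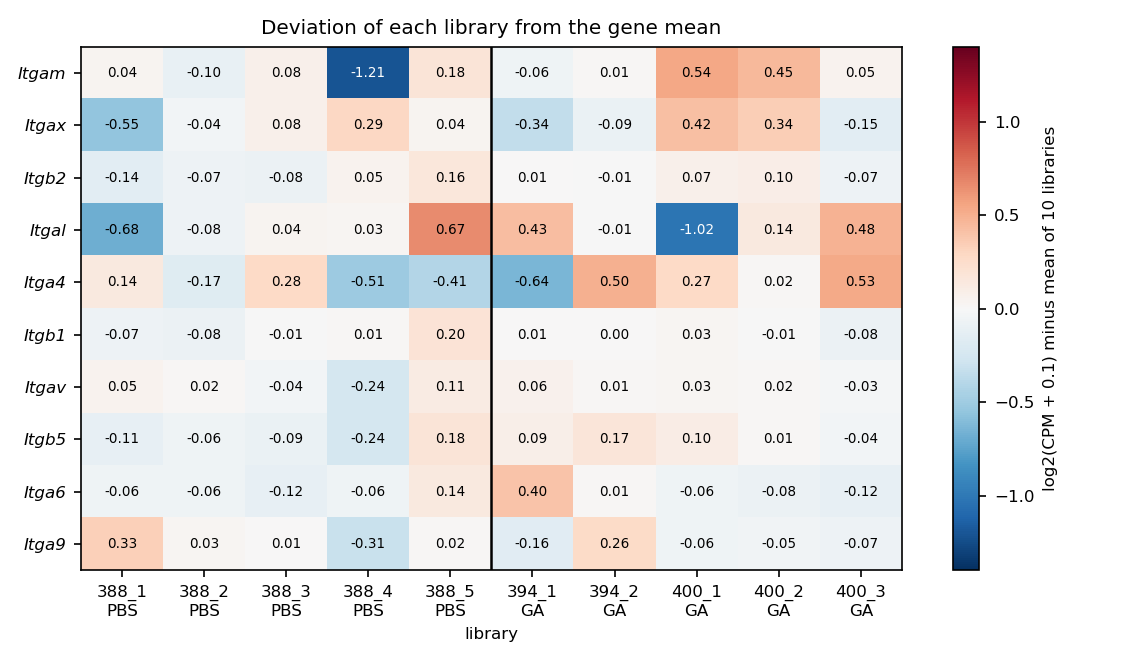
Deviation of each library (columns, PBS left of the line, GA right) from the mean of 10 libraries for each integrin gene (rows), as log2(CPM + 0.1), with red above and blue below the mean and the value printed in each cell. The darkest cells are *Itgam* in 388_4, *Itgal* in 400_1 and 388_1 and *Itgal* in 388_5, and the row of *Itgb1* is nearly white outside 388_5.

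*Itgb1*, on chromosome 8 at 128685654 to 128733200, encodes the β1 subunit shared by the receptors for laminin, fibronectin and VCAM-1. It read 519, 514, 541, 549 and 624 CPM in PBS and 549, 545, 556, 541 and 515 CPM in GA, with means of 549 ± 44.0 and 541 ± 15.4 CPM. Apart from 388_5 the libraries of both groups lay within 514 to 556 CPM. The log2 fold change was -0.022 ± 0.062 (SE; 95% interval -0.16 to 0.11), with an edgeR adjusted p of 0.976.

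*Itgav*, on chromosome 2 at 83724397 to 83806916, encodes αv, whose integrins bind the RGD motif of vitronectin and osteopontin and the latent form of TGF-β. It read 251, 245, 235, 205 and 262 CPM in PBS and 252.4, 244, 248, 246 and 238 CPM in GA. The GA values lay close together and inside the PBS range, with means of 239.5 ± 21.9 CPM in PBS and 246 ± 5.27 CPM in GA. The log2 fold change was 0.036 ± 0.068 (SE; 95% interval -0.11 to 0.18), with an edgeR adjusted p of 0.971. Library 388_4 was the lowest here, as for *Itgam* and *Itgb5*.

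*Itga6*, on chromosome 2 at 71745616 to 71858416, encodes the α6 subunit of a laminin receptor. It read 212, 213, 205, 213 and 244 CPM in PBS and 291, 223, 213, 210.0 and 204 CPM in GA. Library 394_1 stood apart from the other 4 GA libraries, and its *Itga6* level was 53.1% of *Itgb1*, where the other 9 libraries ran from 37.8% to 41.3%. The log2 fold change was 0.073 ± 0.094 (SE; 95% interval -0.13 to 0.27), with an edgeR adjusted p of 0.951, and without 394_1 it was -0.030. *Itga9*, on chromosome 9 at 118606690 to 118901003, encodes the α9 subunit, a receptor for tenascin-C and osteopontin. It read 173, 139.8, 138, 111 and 139 CPM in PBS and 123, 165, 132, 132 and 131 CPM in GA, with 388_1 and 394_2 high and 388_4 low. The log2 fold change was -0.039 ± 0.11 (SE; 95% interval -0.27 to 0.19), with an edgeR adjusted p of 0.976.

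**Figure D3:**
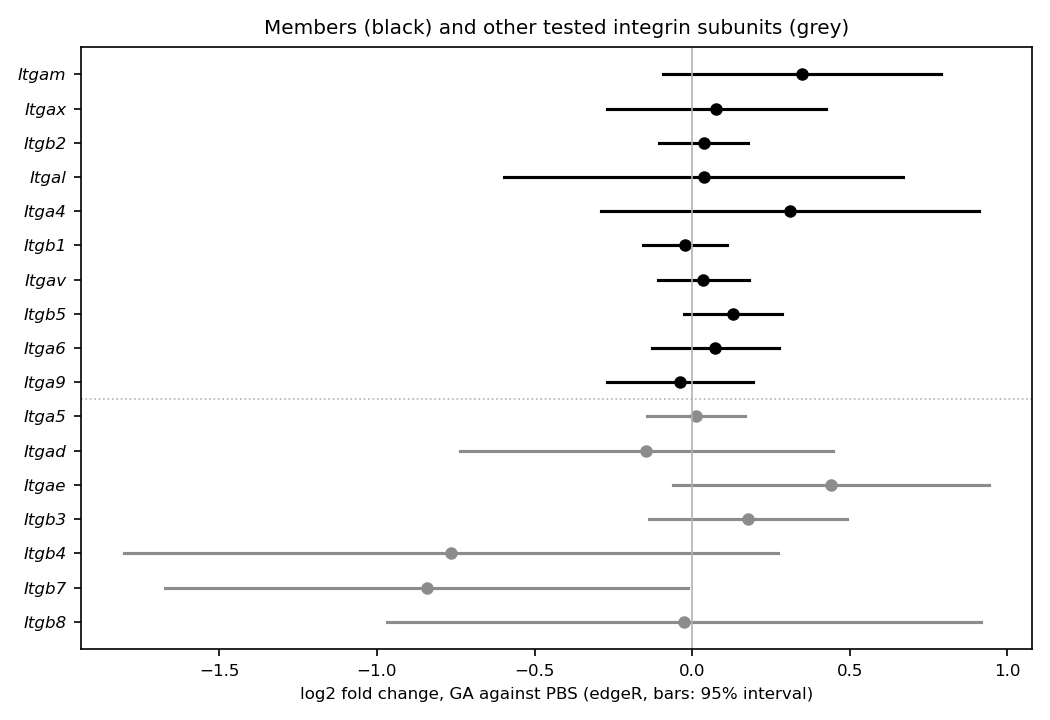
Log2 fold change of GA against PBS (horizontal axis) by edgeR for the 10 integrin genes (black) and the 7 other integrin subunits that passed the filter (grey), with bars for the 95% interval. The interval of each of the 10 includes 0, and among them the narrowest bars are those of *Itgb1*, *Itgb2*, *Itgav* and *Itgb5*.

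Levels of different genes were compared as CPM per kb of merged exon, as a mean over the 10 libraries. The order was led by the β subunits, *Itgb5* at 1090 ± 102 (SD, n = 10), *Itgb2* at 337 ± 22.2 and *Itgb1* at 134 ± 7.68. *Itgam* followed at 42.5 ± 11.2, then *Itga6* at 24.7 ± 2.96, *Itgav* at 22.6 ± 1.43, *Itga9* at 18.0 ± 2.40 and *Itgax* at 13.3 ± 2.74. At the end stood *Itgal* at 0.649 ± 0.211 and *Itga4* at 0.171 ± 0.0494 CPM per kb. Neighbours in this order whose ranges over libraries overlapped were *Itgam* and *Itga6*, *Itga6* and *Itgav*, *Itgav* and *Itga9*, and *Itga9* and *Itgax*, the overlap of *Itgam* and *Itga6* resting on 388_4 alone (*Itgam* at 17.65 there and at 38.1 or more in the other 9, above the highest *Itga6* value of 32.3). The steps from *Itgb5* to *Itgb2* (3.23-fold), *Itgb2* to *Itgb1* (2.52-fold), *Itgb1* to *Itgam* (3.14-fold), *Itgax* to *Itgal* (20.5-fold) and *Itgal* to *Itga4* (3.8-fold) left no overlap. The place of *Itgam* depends on the exon sharing above. Per kb of unshared exon it stood at 135.7 ± 35.8 (56.3 to 189.9), beside *Itgb1* in the order. No member's place was tested, since the genes differ in sequence and annotation.

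**Figure D4:**
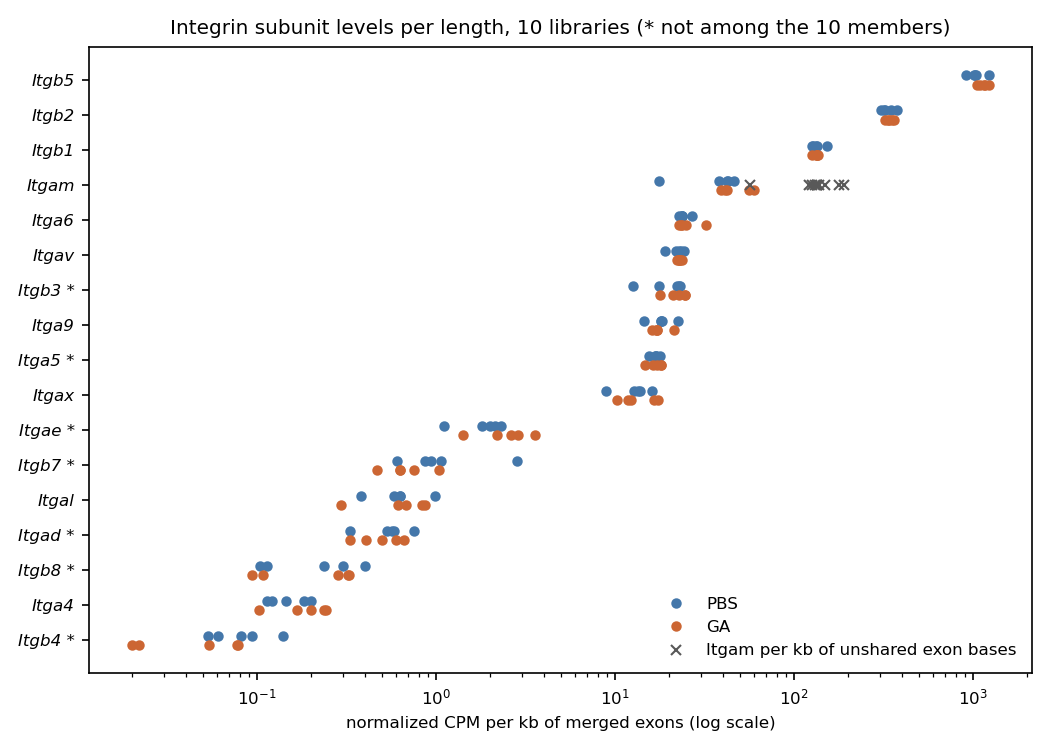
Normalized CPM per kb of merged exons (horizontal axis, log scale) for the integrin genes in each of the 10 libraries, PBS in blue and GA in orange, with crosses for *Itgam* per kb of exon bases that no other gene shares and stars for subunits outside the 10. *Itgb5* lies near 1090 and *Itga4* near 0.171, and PBS and GA points overlap in every row.

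Of all reads on the 26 integrin genes, the 10 members held 96.2% to 97.1% in a library, and *Itgb5* alone held 56.7% to 61.9%. Together the 26 took 5734 to 7099 CPM (by total counts), lowest in 388_4 and highest in 394_2. Among the 16 other subunits 7 passed the filter. *Itgb3*, a further partner of αv, was at 116 ± 26.5 CPM in PBS and 131 ± 17.2 CPM in GA (SD, n = 5 each), and its lowest library was again 388_4, at 74.6 CPM. *Itga5*, the α subunit of the fibronectin receptor, was at 82.6 ± 4.17 and 83.3 ± 6.96 CPM. *Itgae*, the αE subunit known as CD103, was at 8.54 ± 2.12 and 11.6 ± 3.65 CPM, with a log2 fold change of 0.44 and an edgeR p of 0.0804. *Itgb7*, the partner of αE and of α4, was at 3.49 ± 2.49 and 1.94 ± 0.596 CPM. It had the only unadjusted p under 0.05 among these 7, where 5.75% of all genes tested had such a p. The p was 0.0468 by edgeR with an adjusted p of 0.859, and the log2 fold change was -0.84 ± 0.39 (SE). The highest *Itgb7* library was 388_4 at 7.87 CPM, where the other 9 ran from 1.29 to 2.93. *Itgad*, *Itgb8* and *Itgb4* lay at 0.352 to 2.56 CPM by group mean. The remaining 9 subunits, among them *Itga1*, *Itga2*, *Itga2b* of platelets and *Itgb6* of epithelia, had at most 30 counts in any library.

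Partner subunits were compared across libraries. Of 8 α and β pairs tested by permutation with Benjamini-Hochberg adjustment over the 8, none had an adjusted p under 0.05, for Pearson's r or Spearman's rho. The αv and β5 genes came nearest, with r = 0.76 (permutation p = 0.00646, adjusted 0.0517) and rho = 0.56 (permutation p = 0.0967, adjusted 0.258) over 10 libraries. Leaving out 388_4 and 388_5, the libraries farthest from the *Itgb5* median, narrowed the range and gave r = 0.33. Without 388_4 alone r was 0.56 and without 388_5 alone 0.70. With values centred within each group it was 0.77 (permutation p = 0.0169, adjusted 0.135). With CPM by total counts it was 0.70 (adjusted permutation p of 0.152). *Itgax* and *Itgb2* had r = 0.65 (permutation p = 0.0425, adjusted 0.17) and rho = 0.59 (permutation p = 0.0812, adjusted 0.258), and r = 0.64 without the 2 libraries farthest from the *Itgb2* median. *Itgam* and *Itgb2* had r = 0.12 (permutation p = 0.768, adjusted 0.768) and rho = 0.39 (permutation p = 0.261, adjusted 0.349), and r = 0.63 without 388_4. For *Itga6* and *Itgb1*, r was 0.44 (permutation p = 0.164, adjusted 0.437) and rho 0.71 (permutation p = 0.027, adjusted 0.216). The other 4 pairs had r from -0.42 to 0.27. No r was given within a title prefix, since none has more than 5 libraries.

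Among 8691 genes with a mean of at least 10 CPM, the profile over the 10 libraries most like that of *Itgam* was found for *Klhl23* (r = 0.97), *Clptm1l* (0.97), *Zfp770* (0.96), *Mrpl50* (0.96) and *Fam3c* (0.95). All 5 lay below their PBS mean in 388_4. Without that library, r was 0.82, 0.81, 0.93, 0.83 and 0.78. Within the family, *Itgav* ranked 264 of the 8691 (r = 0.82), *Itgb5* 874 (r = 0.65), *Itga9* 2016 (r = 0.43), *Itgb2* 3806, *Itgb1* 3955 and *Itga6* 4551, while *Itgax*, the neighbour on the chromosome, ranked 4404 (r = 0.023). These correlations are descriptions over 10 libraries and have no p.

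The genes that switch integrins on and link them to actin were read against the same background, in which 0% of all genes tested were called and 5.75% had an unadjusted p under 0.05. Of 32 such genes, 28 passed the filter, with 12 higher and 16 lower in GA, 0 called, 0 at an unadjusted p under 0.05 and a median log2 fold change of -0.014, against 0.0002 over all genes tested. *Rap1a*, a small GTPase that brings talin to the β tail, was at 58.4 ± 4.75 CPM in PBS and 65.5 ± 4.94 CPM in GA, with 4 of 5 GA libraries above all PBS libraries, a log2 fold change of 0.17 and an edgeR p of 0.0554 (adjusted 0.872). *Tln2*, a talin, was at 189 and 201 CPM with an edgeR p of 0.194. In the other direction, *Ptk2*, the focal adhesion kinase, was at 19.2 and 16.7 CPM (edgeR p of 0.161), and *Parvb*, a parvin of focal adhesions, at 4.53 and 3.63 CPM (edgeR p of 0.229).

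Ligand genes of integrins were read against that background too (0% and 5.75%). Of 28 ligand genes, 15 passed the filter, with 7 higher and 8 lower, 0 called, 0 at an unadjusted p under 0.05 and a median log2 fold change of -0.038. *C3*, the source of the iC3b fragment that αMβ2 and αXβ2 bind, was at 7.83 ± 3.14 CPM in PBS and 11.3 ± 3.56 CPM in GA, with 2 of 5 GA libraries above all PBS libraries, a log2 fold change of 0.54 ± 0.28 (SE) and an edgeR p of 0.0726 (adjusted 0.884). *Vcam1*, a ligand of α4β1, was at 30.9 and 34.1 CPM with an edgeR p of 0.517. *Spp1*, which encodes osteopontin, was at 137 ± 66.8 and 112 ± 20.9 CPM (edgeR p of 0.26), its highest library being 388_4 at 246 CPM. *F11r*, the junctional adhesion molecule that binds αLβ2, was at 952 and 894 CPM (edgeR p of 0.199).

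The dependence of these values on single libraries differed between members. *Itgam*, *Itgb2*, *Itga4* and *Itgb5* stayed higher in GA with any one library left out, and the log2 fold change ran from 0.17 to 0.44 for *Itgam*, 0.21 to 0.47 for *Itga4*, 0.087 to 0.20 for *Itgb5* and 0.0056 to 0.088 for *Itgb2*, for which the lower end is near 0. For *Itgax*, *Itgal*, *Itgb1*, *Itgav*, *Itga6* and *Itga9* the sign turned with at least 1 library left out. No member had an adjusted p under 0.05 in any of these fits.

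**Figure D5:**
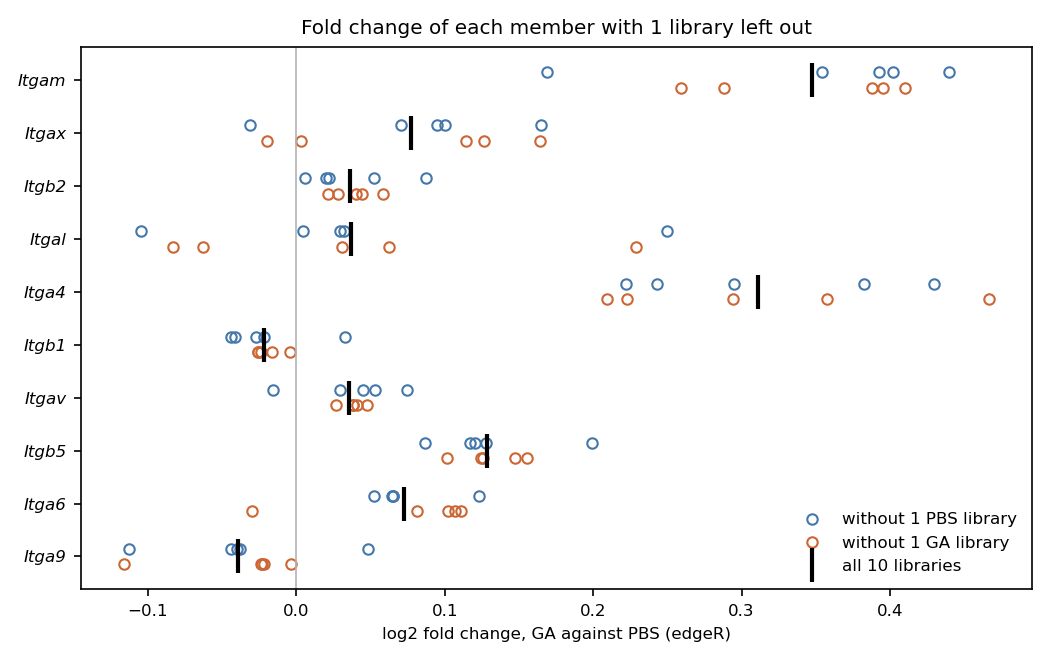
Log2 fold change of GA against PBS (horizontal axis) of each integrin gene by edgeR with all 10 libraries (black bar) and with 1 PBS library (blue ring) or 1 GA library (orange ring) left out. *Itgam* falls from 0.35 to 0.17 without 388_4, and *Itgb5* rises from 0.13 to 0.20 without 388_5.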

How the data were processed

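RNA of CD45int CD11b+ cells from hippocampi, cleared of myelin and sorted by FACS, was amplified (SMARTer v4), made into libraries (Nextera XT) and sequenced as 100 nt single-end reads. The authors deposited raw counts of reads per gene for 55453 genes by symbol, without normalization. The submitters' processing notes name bcl2fastq 2.19.0, fastp 0.20.0, STAR 2.7.0f, Subread 1.6.4 with featureCounts, DESeq2 and the build GRCm38.p6. The annotation release, the strand setting and the treatment of overlapping genes are not given in the sources used here. Gene models were taken from a GENCODE annotation of GRCm38, which holds 54510 of the symbols, and promoters from RefSeq. All columns of the table were matched to a library, leaving 0 without one, and groups came from the treatment label.

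Counts were filtered (filterByExpr, minimum count 10), normalized by TMM and tested in 1 fit of all 14481 genes with edgeR 4.0.16 (quasi-likelihood F-test, Benjamini-Hochberg, threshold 0.05, no covariate) in R 4.3.3, with limma 3.58.1 and DESeq2 1.42.0 as alternatives. CPM are TMM-normalized. Permutation tests and correlations used log2(CPM + 0.1) in Python 3.11.15 with scipy 1.17.1. Permutation tests of groups were exact and two-sided over all arrangements of 5 and 5 libraries, with a smallest p of 0.00794. Correlations used 100000 resamples. At 32332185 to 38764643 counts a library, the members took 48 counts or more in each library, fewest for *Itgal* and *Itga4*. No library was a copy of another. The scripts were tested on simulated data with known changes.

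The members, the lists and the rules were chosen with earlier results of these data known. All members were named with full values, the other integrins by whether they passed the filter, the 2 genes with the smallest p in each direction of the adaptor and ligand lists, and the 5 genes most like *Itgam*. Alternatives were DESeq2, limma-voom, robust fits, other scalings and filters, a replicate block, GA libraries of 1 title prefix, each library left out, another pseudocount and group-centred values. The level of *Itgam* per unshared kb and its spread without 388_4 were added after the data were seen. Sums of marker genes served to check the sorted cells, and 1 of the microglial markers first listed is not reported here and was left out of its sum.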

Additional observations from a re-analysis of the deposited data

Results flagged for a closer look

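Each of the 10 integrin genes was checked in each group of 5 libraries for a library whose gap to the nearest other, divided by the range of the group, was above Dixon's 95% critical value of 0.71. Of 20 groups checked, 4 held such a library, where chance gives about 1 in 20 for independent, normally distributed values. The 20 checks reuse the same 10 libraries and genes that vary together, so 4 is not shown to exceed chance. *Itgam* in PBS library 388_4 was low at 88.7 CPM, with a gap of 0.714 of the range. *Itga6* was high in PBS library 388_5 at 244 CPM, with a gap of 0.796, and in GA library 394_1 at 291 CPM, with a gap of 0.781. *Itga9* was high in GA library 394_2 at 164.9 CPM, with a gap of 0.779. What sets these libraries apart was not tested.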

How the results depend on the processing

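No member was called under any alternative. Of 210 alternative log2 fold changes of members, 196 kept their direction and 14 turned, and the lowest adjusted p was 0.561. Genes called in the whole table numbered 2 with DESeq2's defaults, 3 without its independent filtering and Cook cutoff, and 0 to 1 with single libraries left out (1 without 394_1); the cause was not tested. The log2 fold change turned to -0.19 for *Itgax* and 0.043 for *Itga9* with the 394 pair as the GA group, and to -0.056 for *Itgal* and -0.050 for *Itga6* with the 400 libraries. With single libraries left out it ran from -0.031 to 0.17 (*Itgax*), -0.10 to 0.25 (*Itgal*), -0.044 to 0.033 (*Itgb1*), -0.016 to 0.075 (*Itgav*), -0.030 to 0.12 (*Itga6*) and -0.12 to 0.048 (*Itga9*). The differences in mean log2(CPM + 0.1) ran from -0.057 to 0.17, -0.16 to 0.27, -0.041 to 0.028, -0.015 to 0.074, -0.029 to 0.11 and -0.11 to 0.047 for the same genes in the same order. Other scalings turned no member's direction.

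With the title number as a replicate block, 0 members and 0 genes were called, *Itgb1* turned to 0.042, and *Itgb5* had a log2 fold change of 0.15 with an edgeR p of 0.0167 and an adjusted p of 0.705. Libraries with the same number did not deviate together over all genes (r from -0.11 to 0.044 for 5 pairs, and from -0.11 to 0.067 for the 20 others). What the number stands for is not given, and such an r cannot show whether these libraries share anything that bears on few genes.

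Pair correlations without the 2 libraries farthest from the β median turned to -0.40 for *Itgal* and *Itgb2* and to -0.17 for *Itgav* and *Itgb1*. With single libraries left out they ran from -0.0022 to 0.63 for *Itgam* and *Itgb2*, -0.013 to 0.65 for *Itgal* and *Itgb2*, -0.21 to 0.69 for *Itgav* and *Itgb1*, and -0.38 to 0.036 for *Itga9* and *Itgb1*. For *Itga6* and *Itgb1*, r was 0.85 without 394_1 (adjusted permutation p of 0.0703). For *Itgav* and *Itgb5* the adjusted permutation p fell to 0.0132 without 388_1 and 0.0308 without 394_2, and was 0.0657 to 0.239 without any other library. With CPM by total counts it was 0.152. On that scaling r was 0.006 for *Itgav* and *Itgb1* and 0.038 for *Itgam* and *Itgb2*. The level of *Itgam* moved from 42.5 to 135.7 CPM per kb with unshared exon bases. The lowest counts among the members were those of *Itgal* and *Itga4*, at 48 to 228 a library, and what share of their spread is counting error was not tested.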
